A study of Mus musculus with 16 samples.

Results

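Prostaglandin synthesis and receptor genes were followed across the cell types of the mouse thoracic aorta in droplet single-cell RNA sequencing libraries, in which each captured RNA molecule carries a unique molecular identifier (UMI). The 7 genes were Ptgs1, Ptgs2, Ptgis, Ptges, Ptger4, Ptgir and Tbxa2r, chosen by symbol from the 31019 symbols in the count matrices, and each symbol matched 1 row. They were counted in 4 cell classes set by UMIs of other genes: vascular smooth muscle cells (VSMCs; at least 5 UMIs of Myh11 and more than of Dcn), fibroblasts (at least 5 UMIs of Dcn and more than of Myh11), endothelium (at least 2 UMIs of Pecam1 and Cdh5 together) and leukocytes (at least 2 UMIs of Ptprc and Tyrobp together). None of the 7 genes was used in a gate.

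The 16 libraries came from 129S6/SvEv mice that carried Myh11-CreER, a tamoxifen-inducible Cre recombinase driven by a smooth muscle promoter, and all mice received tamoxifen at 6 weeks of age. Smad3SmKO mice had both Smad3 alleles floxed, and Smad3+/+ controls carried the same Cre with intact alleles. Aortas from root to arch were taken 10 weeks after deletion, at 16 weeks of age (2 Smad3+/+ and 2 Smad3SmKO libraries), or 18 weeks after deletion, at 24 weeks of age (5 Smad3+/+ and 7 Smad3SmKO libraries). All 10-week libraries were digested for 60 min in batch 4. Both Smad3+/+ libraries of 10 weeks were labelled as carrying the Myh11-GFP tracer and both Smad3SmKO libraries as without it. Tracer label and genotype thus go together at 10 weeks. At 18 weeks, 7 libraries were digested for 30 min (batches 1 to 3, labelled as without tracer) and 5 for 60 min (batches 5 and 6, labelled as carrying the Myh11-GFP tracer), so digestion time, tracer label and batch cannot be told apart there. Batch 5 held 2 Smad3SmKO libraries and no control.

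After the study's limits on genes, UMIs and mitochondrial share, 50858 cells were kept, between 631 and 6497 per library, with 8648 VSMCs (20 to 1675 per library), 33954 fibroblasts (192 to 5132), 1226 endothelial cells (3 to 164) and 2946 leukocytes (10 to 834). Cells passing more than 1 gate (4.80% of the kept cells) were left out, 3.23% passed none, and any pair of libraries shared 0 to 11 kept barcodes. The share of gated cells left out was largest for endothelium in every library. In Smad3+/+ 18-week replicate 1, 317 cells passed the endothelium gate and 94 stayed, against 3640 and 3397 for fibroblasts. In Smad3+/+ 10-week replicate 2, 152 passed the endothelium gate and 89 stayed. In most libraries the endothelial values thus rest on the smaller part of the gated cells. Smooth muscle, fibroblast, endothelial and leukocyte marker lists were each highest in the class of that name; the summed smooth muscle list had a median of 56313 CPM in VSMCs (UMIs scaled to the total of the class in its library) and 2162 CPM in fibroblasts. Smad3 itself was at 7.08 ± 2.97 CPM (SD, n = 5) in 18-week Smad3+/+ VSMCs and at 9.52 ± 4.72 CPM (n = 7) in 18-week Smad3SmKO VSMCs. The 10-week values were 5.04 ± 0.41 (n = 2) and 6.58 ± 1.89 (n = 2). Reads from the 3′ end of the transcript do not show the deleted part, so these counts do not check the deletion, and the genotypes below are those of the labels. A row of the matrices named Sm3_intact held 0 UMIs in every library and does not check it either. The study itself reported lower Smad3 RNA by qPCR and lower protein by immunoblot in Smad3SmKO aortas. In 4 libraries the tracer label and the GFP UMIs differed: both 10-week Smad3SmKO libraries held GFP UMIs without the label, and Smad3+/+ 18-week replicates 4 and 5 carried the label without GFP UMIs in their kept cells.

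Prostanoids are made from arachidonic acid, which phospholipases release from membranes. The cyclooxygenases Ptgs1 (COX-1, present constitutively in many cells) and Ptgs2 (COX-2, an inducible immediate early gene) turn it into prostaglandin H, and terminal synthases make the end products from there: Ptgis makes prostacyclin, which relaxes vascular smooth muscle and holds platelets in check, and Ptges makes prostaglandin E. The products act through G-protein-coupled receptors, of which Ptgir binds prostacyclin, Ptger4 (EP4) binds prostaglandin E and Tbxa2r binds thromboxane, a vasoconstrictor.

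In the GRCm38 annotation (GENCODE M21) the cyclooxygenases lie at chr2:36230426-36252272 (Ptgs1, plus strand) and chr1:150100031-150108227 (Ptgs2, plus strand). The synthases lie at chr2:167191805-167240604 (Ptgis, minus strand) and chr2:30889471-30929863 (Ptges, minus strand), and the receptors at chr15:5206661-5244187 (Ptger4, minus strand), chr7:16906490-16910905 (Ptgir, plus strand) and chr10:81328731-81335172 (Tbxa2r, plus strand). All 7 are protein-coding. Ptgs1 and Ptgis overlap annotated genes on the opposite strand, and the strand setting of the counting is not given in the sources used here.

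The promoters of the cyclooxygenases are shown because Ptgs2, and not Ptgs1, was called between digestion times in the main fits below. Any part of the promoters in that was not tested. Each run covers 120 bases before to 30 bases after the RefSeq start (GRCm38.p6, plus strand; chr1:150099911-150100060 for Ptgs2 and chr2:36230306-36230455 for Ptgs1), and capitals mark the C/EBP, cyclic AMP response element and E-box letters found.
Ptgs2: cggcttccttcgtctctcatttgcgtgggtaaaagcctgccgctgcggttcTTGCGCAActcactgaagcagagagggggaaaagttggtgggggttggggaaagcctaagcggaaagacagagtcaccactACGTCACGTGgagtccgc
Ptgs1: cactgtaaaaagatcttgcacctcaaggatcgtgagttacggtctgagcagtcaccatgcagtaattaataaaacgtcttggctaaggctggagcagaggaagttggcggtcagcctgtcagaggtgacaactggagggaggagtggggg

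Motifs were searched on both strands in the 300 bases from 250 before to 50 after the start, in 32851 promoters. Ptgs2 held the C/EBP palindrome TTGCGCAA at position -69 (the start being position 0), letters found in 0.183% of promoters. It also held the cyclic AMP response element core ACGTCA at position 12 (7.51% of promoters) and the E-box CACGTG at position 16 (7.15%), which share 2 bases with each other. None of these was in the windows of the other 5 genes with a promoter in the table (Ptgs1, Ptges, Ptger4, Ptgir and Tbxa2r), and Ptgis had no entry. No member window held the full cyclic AMP response element TGACGTCA (1.79% of promoters), the AP-1 letters TGACTCA (5.202%), TATAAA (13.6%), the CArG box bound by serum response factor (1.63%) or the Smad palindrome GTCTAGAC (0.213%). The short Smad element CAGAC was in all 6, and in 49.6% of promoters. These are matches of letters, not evidence of binding.

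Each gene had its own distribution over the wall. The prostacyclin synthase Ptgis and the thromboxane receptor Tbxa2r were highest in VSMCs, Ptges and Ptgir in fibroblasts, and Ptgs1 in endothelium. Ptgs2 and Ptger4 had their highest means in leukocytes, an order that did not hold in every set of libraries: at 18 weeks after 30 min of digestion the median of Ptger4 was 52.0 in fibroblasts and 38.6 in leukocytes and that of Ptgs2 43.7 and 46.0, and at 10 weeks the mean of Ptgs2 was 56.0 in fibroblasts and 39.4 in leukocytes. Levels are given in CPM, as a mean over libraries with its SD, and the classes were compared within libraries by edgeR's quasi-likelihood test with Benjamini-Hochberg adjustment over 11149 genes per pair of classes. All 7 genes passed the filter on low counts in that fit. These classes differ in most genes, so the count of members called carries little: between fibroblasts and VSMCs 68.1% of all genes were called, between endothelium and VSMCs 65.8%, between leukocytes and VSMCs 79.8%, between endothelium and fibroblasts 61.5%, between leukocytes and fibroblasts 78%, and between leukocytes and endothelium 67.9%. Of the 7 members, 7, 6, 7, 7, 7 and 6 were called in those pairs.

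**Figure D1:**
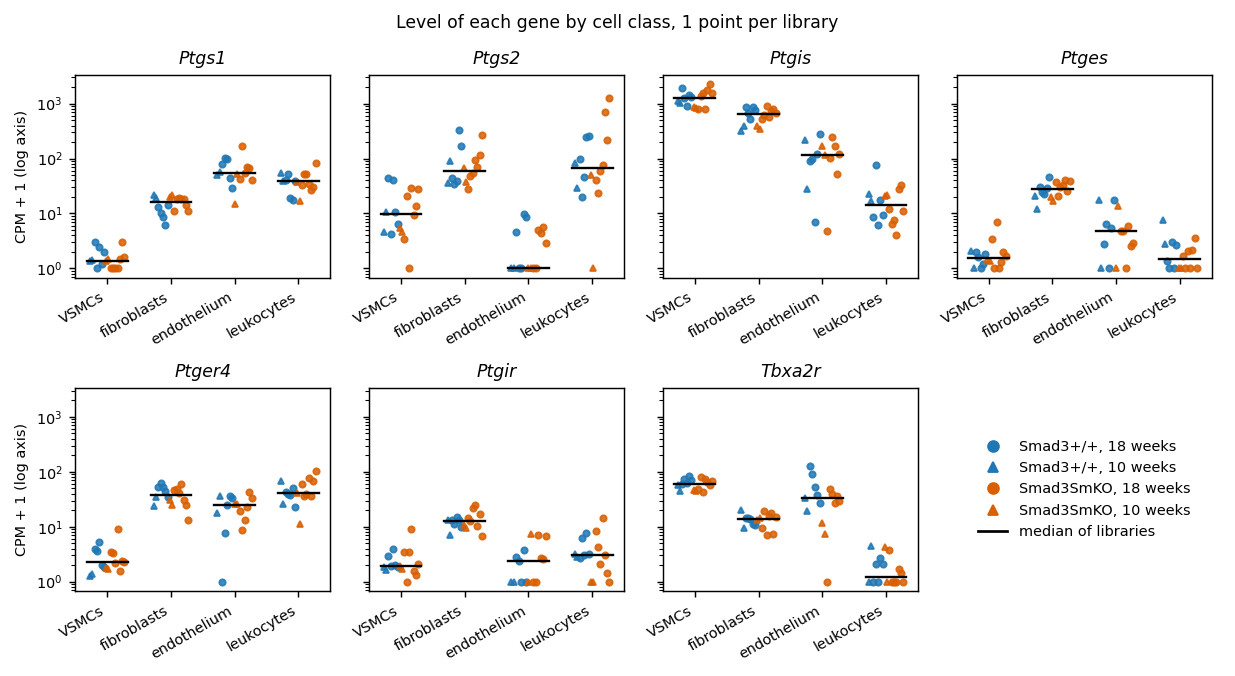
Level of each gene (CPM + 1, log axis) in the 4 cell classes, with 1 point per library with at least 10 cells of the class, coloured by genotype and shaped by weeks after deletion, and a bar at the median of libraries. Ptgis runs from a mean of 1305 CPM in VSMCs to 17.9 CPM in leukocytes and Ptgs1 from 64.0 CPM in endothelium to 0.579 CPM in VSMCs, and the genotypes lie among each other in every panel.

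Of the cyclooxygenases, Ptgs1 was at 64.0 ± 37.9 CPM in endothelium (n = 15), 38.4 ± 17.0 in leukocytes (n = 16), 14.3 ± 4.87 in fibroblasts (n = 16) and 0.579 ± 0.679 in VSMCs (n = 16). VSMCs held 43 Ptgs1 UMIs in all libraries together, 5 libraries had none, and every library with both classes had more in endothelium. The log2 difference between endothelium and fibroblasts was 2.01 (SE 0.19, adjusted p = 1.97e-13), and fibroblasts lay 4.70 above VSMCs (SE 0.29, adjusted p = 1.17e-20). Leukocytes and endothelium were not told apart (log2 difference -0.35, SE 0.20, adjusted p = 0.119), with endothelium higher in 12 of 15 libraries; this Ptgs1 difference was called in 10 of 24 alternatives and became 0.27 with cells of more than 1 gate counted in each class.

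Ptgs2 was at 199 ± 329 CPM in leukocytes, 94.6 ± 88.6 in fibroblasts and 13.8 ± 13.7 in VSMCs (n = 16 each), and at 2.28 ± 2.99 in endothelium (n = 15), where 8 libraries had no UMI. In leukocytes the SD exceeded the mean, which no other member showed in the class where it was highest. Leukocytes exceeded fibroblasts by 0.75 (SE 0.31, adjusted p = 0.0267) on the log2 scale but in only 9 of 16 libraries, and the call held in 12 of 24 alternatives; without Smad3SmKO 18-week replicate 5 the Ptgs2 difference was 0.38 (adjusted p = 0.226). By contrast, fibroblasts exceeded VSMCs by 3.09 (SE 0.37, adjusted p = 1.89e-10) in 15 of 16. Endothelium lay below VSMCs (-2.12, SE 0.74, edgeR adjusted p = 0.0108). With cells of more than 1 gate counted in each class this difference became 2.03. Those cells also pass the gate of another class, so the direction depends on how they are counted.

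Among the synthases, Ptgis was at 1305 ± 443 CPM in VSMCs, 622 ± 196 in fibroblasts, 121 ± 83.7 in endothelium and 17.9 ± 17.4 in leukocytes. VSMCs exceeded fibroblasts in 16 of 16 libraries (fibroblasts minus VSMCs -1.06 on the log2 scale, SE 0.24, adjusted p = 0.000123) and endothelium in 15 of 15 (-3.72, SE 0.29, adjusted p = 2.27e-16). Endothelium lay below fibroblasts in Ptgis too (-2.66, SE 0.28, edgeR adjusted p = 7.04e-12). With cells of more than 1 gate counted in each class that difference was -0.08 (edgeR adjusted p = 0.81) and the one from VSMCs -1.15. The cells so added to endothelium also pass the gate of another class, so this setting cannot decide the endothelial level of Ptgis. Ptges was at 27.0 ± 9.39 CPM in fibroblasts against 0.931 ± 1.48 in VSMCs, 4.91 ± 5.76 in endothelium and 1.11 ± 1.69 in leukocytes, and fibroblasts exceeded each other class in every library that had both. Its log2 difference between fibroblasts and VSMCs was 5.48 (SE 0.25, adjusted p = 2.17e-25).

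Among the receptors, Tbxa2r followed the muscle: 60.3 ± 13.3 CPM in VSMCs, 38.3 ± 32.7 in endothelium, 12.4 ± 3.94 in fibroblasts and 0.907 ± 1.25 in leukocytes. VSMCs exceeded endothelium by 0.82 on the log2 scale (endothelium minus VSMCs -0.82, SE 0.20, adjusted p = 0.000379) in 13 of 15 libraries. Ptgir, the receptor for the product of Ptgis, was at 12.2 ± 4.83 CPM in fibroblasts, 3.10 ± 3.58 in leukocytes, 1.83 ± 2.38 in endothelium and 1.59 ± 1.88 in VSMCs, where 71 UMIs were counted in all. Fibroblasts exceeded VSMCs in Ptgir by 3.47 (SE 0.22, adjusted p = 5.95e-20) in 16 of 16 libraries, while endothelium and VSMCs were not told apart (0.70, SE 0.46, adjusted p = 0.1797). Between leukocytes and endothelium Ptgir differed by 1.04 (SE 0.43, adjusted p = 0.0312), a call that held in 9 of 24 alternatives; it was 0.70 without Smad3SmKO 18-week replicate 4 (adjusted p = 0.166) and -0.48 with cells of more than 1 gate counted in each class. Ptger4 was at 46.3 ± 22.7 CPM in leukocytes, 38.1 ± 14.2 in fibroblasts, 22.4 ± 12.2 in endothelium and 1.94 ± 1.95 in VSMCs. Leukocytes and fibroblasts were not firmly told apart: the Ptger4 difference of 0.46 (SE 0.20, adjusted p = 0.0309) was called in 6 of 24 alternatives, fell to 0.29 (adjusted p = 0.150) without Smad3SmKO 18-week replicate 7, and each class was the higher in 8 of 16 libraries. Both were far above VSMCs (5.51, SE 0.31, adjusted p = 1.47e-22, and 5.05, SE 0.28, adjusted p = 5.33e-22).

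The share of cells with at least 1 UMI put each gene highest in the same class after each cell was thinned to 2000 UMIs, which evens out depth (medians of 7852.5 UMIs per cell in VSMCs, 8216.5 in fibroblasts, 5388.5 in endothelium and 5496.5 in leukocytes). Ptgis was found in 84.95% ± 8.88 of thinned VSMCs, 59.4% ± 9.88 of fibroblasts, 9.91% ± 7.40 of endothelial cells and 2.77% ± 2.02 of leukocytes; without thinning these were 95.9%, 87.2%, 16.5% and 8.32%. Tbxa2r was found in 11.3% ± 4.14 of VSMCs, 7.56% ± 4.54 of endothelial cells, 2.43% ± 0.959 of fibroblasts and 0.185% ± 0.338 of leukocytes, the last taken as its background. Ptges was in 5.04% ± 1.64 of fibroblasts and in 0.2698% to 0.887% of the other classes, and Ptgir in 2.43% ± 1.00 of fibroblasts and 0.0580% to 0.532% of the others. Ptgs1 was in 9.36% ± 4.35 of endothelial cells, 5.68% ± 2.92 of leukocytes, 2.42% ± 0.837 of fibroblasts and 0.0612% ± 0.142 of VSMCs. Ptger4 was in 7.84% ± 3.82 of leukocytes, 6.57% ± 2.21 of fibroblasts, 3.97% ± 2.86 of endothelial cells and 0.155% ± 0.170 of VSMCs. Ptgs2 was in 14.5% ± 17.2 of leukocytes and 9.58% ± 6.42 of fibroblasts against 1.87% ± 1.61 of VSMCs and 0.329% ± 0.684 of endothelial cells.

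RNA free in the droplets can add UMIs to cells that do not express a gene, and one source keeps its genes in 1 ratio in every class. Ptgis was therefore set against the muscle actin Acta2. VSMCs held 112148 UMIs of Ptgis and 2289054 of Acta2, fibroblasts 227409 and 270841, endothelium 1067 and 2597, and leukocytes 387 and 3661. The ratio in leukocytes lay nearest to that of VSMCs, and those of fibroblasts and endothelium were further above it. Fibroblasts held more Ptgis UMIs than VSMCs, and the ratios of endothelium and leukocytes lay between those of VSMCs and fibroblasts. With free RNA from both of these classes the ratio cannot decide, and the part of free RNA was not tested. Tbxa2r had 5046 UMIs in VSMCs, 3900 in fibroblasts, 363 in endothelium and 16 in leukocytes against the same Acta2 UMIs, with the highest ratio in endothelium.

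Within fibroblasts and leukocytes the genes were unevenly spread. Cells were split by UMIs of genes that mark known subsets, and both sides were compared within libraries with at least 10 cells on each side; these are descriptions without a test. Leukocytes with S100a8 or S100a9, markers of neutrophils, had 537 ± 343 CPM of Ptgs2 against 124 ± 159 in the other leukocytes, higher in 11 of 11 libraries. The same cells had little of the other cyclooxygenase: Ptgs1 was at 3.13 ± 5.73 CPM against 40.4 ± 16.8, lower in 11 of 11. Leukocytes with C1qa, C1qb or Csf1r, markers of macrophages, were the reverse, with Ptgs1 at 45.6 ± 18.7 CPM against 2.15 ± 3.91 (higher in 14 of 14) and Ptger4 at 48.3 ± 21.3 against 26.0 ± 16.01 (higher in 12 of 14).

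Among fibroblasts, those with Has1 (a hyaluronan synthase) or Spon2 had 172 ± 158 CPM of Ptgs2 against 60.6 ± 51.2 in the rest, higher in 16 of 16 libraries. Those with Wif1 or Coch, a Wnt inhibitor and a matrix protein, had more Ptgis (858 ± 262 against 584 ± 184, 16 of 16) and more Ptger4 (56.1 ± 27.2 against 34.0 ± 11.9, 14 of 16), and less Ptgir (5.13 ± 5.73 against 13.7 ± 5.21, higher in only 2 of 16). Cells with Hsd11b1 or F3, which encodes tissue factor, showed the opposite: Ptgir was at 15.7 ± 6.62 against 8.56 ± 3.45 CPM (higher in 16 of 16), Tbxa2r at 15.6 ± 5.64 against 8.21 ± 3.56 (15 of 16), Ptges at 32.2 ± 12.7 against 22.2 ± 8.69 (13 of 16) and Ptgis at 510 ± 149 against 741 ± 257 (higher in 0 of 16). Ptgs1 was higher in cells with Pi16 or Dpp4, at 16.4 ± 6.79 against 6.29 ± 2.46 CPM (15 of 16). Like Ptgs2, it was also higher in cells with Has1 or Spon2, at 29.3 ± 19.4 against 12.6 ± 4.14 CPM (14 of 16). Within VSMCs, cells with Ptprz1 or Tes had 1508 ± 480 CPM of Ptgis against 1254 ± 407 (12 of 14) and 66.2 ± 15.7 CPM of Tbxa2r against 55.5 ± 15.0 (13 of 14). The few Ptger4 UMIs of VSMCs lay at 3.19 ± 2.74 CPM in cells with Notch3 or Enpep against 0.903 ± 0.920 in the others (higher in 10 of 14), and at 0.487 ± 0.60 CPM in cells with Ptprz1 or Tes against 1.86 ± 1.22 (higher in 3 of 14).

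**Figure D2:**
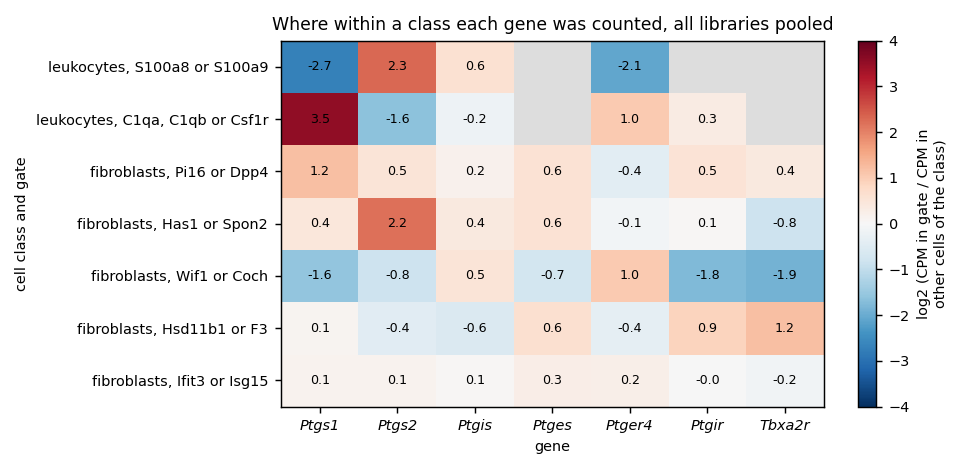
Ratio of each gene's pooled CPM in cells inside a gate to that in the other cells of its class (log2, colour and number; grey where either side had under 10 UMIs), for fibroblasts and leukocytes. Ptgs1 and Ptgs2 take opposite signs in both leukocyte gates, and Ptgir and Ptgis take opposite signs in the Wif1 or Coch and in the Hsd11b1 or F3 gates.

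Genotype was tested in each class by 1 edgeR quasi-likelihood fit over all libraries, with batch as a term and separate genotype effects at 10 and 18 weeks. In VSMCs 5 of the 7 genes passed the filter on low counts (not Ptgs1 and Ptges), in fibroblasts all 7, in endothelium 4 (not Ptgs2, Ptges and Ptgir) and in leukocytes 4 (not Ptges, Ptgir and Tbxa2r). No member was called in any class at 10 weeks, at 18 weeks or in the difference between them, by edgeR or by DESeq2. Few genes were called at all: in VSMCs 0% at 10 weeks, 0.0342% (4 of 11711 genes) at 18 weeks and 0.00854% in the difference, and 0% in all 3 contrasts in fibroblasts, in endothelium and in leukocytes. At 18 weeks the unadjusted p was under 0.05 for 562 genes in VSMCs, 350 in fibroblasts, 292 in endothelium and 139 in leukocytes, and DESeq2 called 8, 3, 0 and 2 genes.

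In VSMCs, the cells that carry the deletion, Ptgis at 18 weeks was at 1931, 1273, 907, 1469 and 1311 CPM in Smad3+/+ replicates 1 to 5 and at 811, 1375, 1550, 799, 1752, 2306 and 1566 CPM in Smad3SmKO replicates 1 to 7. The groups overlapped over most of their range, and the log2 difference was -0.08 (SE 0.20, adjusted p = 1.00). Tbxa2r in the same cells was at 58.2, 73.8, 62.5, 83.1 and 71.0 CPM in Smad3+/+ and at 47.9, 78.4, 41.9, 71.6, 65.3, 56.9 and 66.1 CPM in Smad3SmKO, with a log2 difference of -0.20 (SE 0.17, adjusted p = 1.00). Ptgs2 had a log2 difference of -0.45 with an SE of 0.71, wide against the size of the difference. At 10 weeks the differences in VSMCs were -0.31 (SE 0.31) for Ptgis, -0.11 (SE 0.21) for Tbxa2r and -0.63 (SE 0.90) for Ptgs2.

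Among all members, 3 had an unadjusted p under 0.05 at 18 weeks, none of them in VSMCs. In fibroblasts Ptgs1 was at 12.03, 9.20, 7.66, 5.06 and 13.5 CPM in Smad3+/+ and at 10.3, 17.4, 17.8, 17.0, 17.0, 13.2 and 10.1 CPM in Smad3SmKO. The groups overlapped, with 4 of 7 Smad3SmKO libraries above every control, and the log2 difference was 0.62 (SE 0.23, edgeR adjusted p = 1.00). The log2 ratio of the group means (each CPM + 1) was positive in each of the 4 batches with both genotypes, from 0.38 to 0.82. Here and below, these batch means rest on 1 or 2 libraries per genotype. They are libraries of the same fit, so the signs are no separate evidence. In the same cells the prostacyclin receptor Ptgir differed by 0.58 (SE 0.25, edgeR adjusted p = 1.00), positive in 3 of 4 batches. In endothelium Tbxa2r was at 127.7, 89.8, 51.0, 36.9 and 25.9 CPM in Smad3+/+ and at 0, 47.2, 38.5, 26.6, 34.6 and 28.1 CPM in Smad3SmKO replicates 1 to 6 (replicate 7 had 3 endothelial cells and was not used). These libraries rested on 0 to 70 UMIs each. After 30 min of digestion the 3 Smad3+/+ libraries ran from 51.0 to 127.7 CPM and the 4 Smad3SmKO libraries from 0 to 47.2 CPM. Tbxa2r was picked here by its unadjusted p, and the share of all genes that separate in this way was not counted. After 60 min the genotypes overlapped (36.9 and 25.9 against 34.6 and 28.1 CPM). The log2 difference was -1.28 (SE 0.35, edgeR adjusted p = 1.00), below 0 in 4 of 4 batches. It was called in 1 of 27 alternatives, with no filter on low counts (adjusted p = 0.00121), where 69 genes were called in all.

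**Figure D3:**
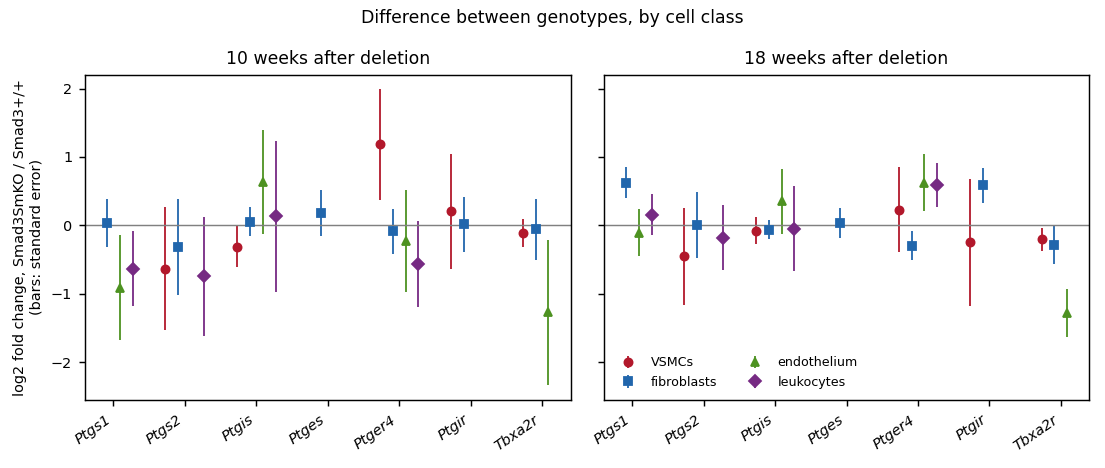
Log2 fold change of each gene between libraries labelled Smad3SmKO and Smad3+/+ (points, with standard errors as bars) at 10 and 18 weeks after deletion, by cell class, for the genes that passed the filter on low counts. The fibroblast and VSMC estimates of Ptgis and Tbxa2r lie within 0.31 of 0 on the log2 scale, and most bars cross 0.

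The clearest difference within a class was that of Ptgs2 between digestion times at 18 weeks. In leukocytes Ptgs2 was at 98.0, 19.0, 46.0, 39.4, 22.1, 57.4 and 74.8 CPM in the 7 libraries digested for 30 min (Smad3+/+ replicates 1 to 3, then Smad3SmKO replicates 1 to 4). In the 5 libraries digested for 60 min it was at 249 and 256 CPM (Smad3+/+ replicates 4 and 5) and at 701, 213 and 1248 CPM (Smad3SmKO replicates 5 to 7). Every 60 min library lay above every 30 min library, in both genotypes. The log2 difference, with genotype as a term, was 3.38 (SE 0.48, edgeR quasi-likelihood adjusted p = 0.00190), while 3.52% of the 9401 genes tested in leukocytes were called. Digestion time did not vary within a batch and the fit had no batch term. Its p-value, like those of the other digestion fits within a class, does not measure the spread between batches. Replicate 7 of Smad3SmKO held 10 leukocytes. Leaving out each library in turn gave 3.06 to 3.74, called each time, and leaving out both libraries of batch 5, added after seeing the data, gave 2.41 (SE 0.40, adjusted p = 0.0150).

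In fibroblasts Ptgs2 was at 43.7, 33.9, 37.3, 27.4, 47.9, 53.0 and 94.0 CPM after 30 min and at 328, 170, 69.6, 115 and 269 CPM after 60 min, in the same order of libraries. All but one of the 60 min libraries lay above every 30 min library, and Smad3SmKO replicate 5 (69.6 CPM) lay below Smad3SmKO replicate 4 (94.0 CPM). The log2 difference was 2.18 (SE 0.39, adjusted p = 0.0209), and 1.59% of the genes tested in fibroblasts were called. It ran from 1.65 to 2.89 over the alternatives; the call was lost without Smad3+/+ replicate 2, 3 or 5 (differences from 1.85 to 2.44 and a highest adjusted p of 0.0627 when any 1 library was left out), without the libraries whose tracer label and GFP UMIs differed, with Smad3SmKO libraries alone, and in limma voom with batch as a random block. In VSMCs Ptgs2 showed no such difference: it ran from 0 to 43.4 CPM after 30 min and from 5.55 to 27.3 CPM after 60 min, a log2 difference of -0.44 (SE 0.61, adjusted p = 0.783), with 3.15% of genes called.

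The 10-week libraries were digested for 60 min too, in another batch and at another age. Their Ptgs2 was at 34.7, 88.1, 65.0 and 36.2 CPM in fibroblasts and at 80.8, 28.2, 48.5 and 0 CPM in leukocytes (2 Smad3+/+, then 2 Smad3SmKO). The 0 stands for no UMI among 193208, which allows up to 15.5 CPM; such floors cover counting error only. In leukocytes all 4 lay below the lowest 18-week library digested for 60 min, and in fibroblasts all 4 lay within the range of the 18-week libraries digested for 30 min; no test was made across ages.

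**Figure D4:**
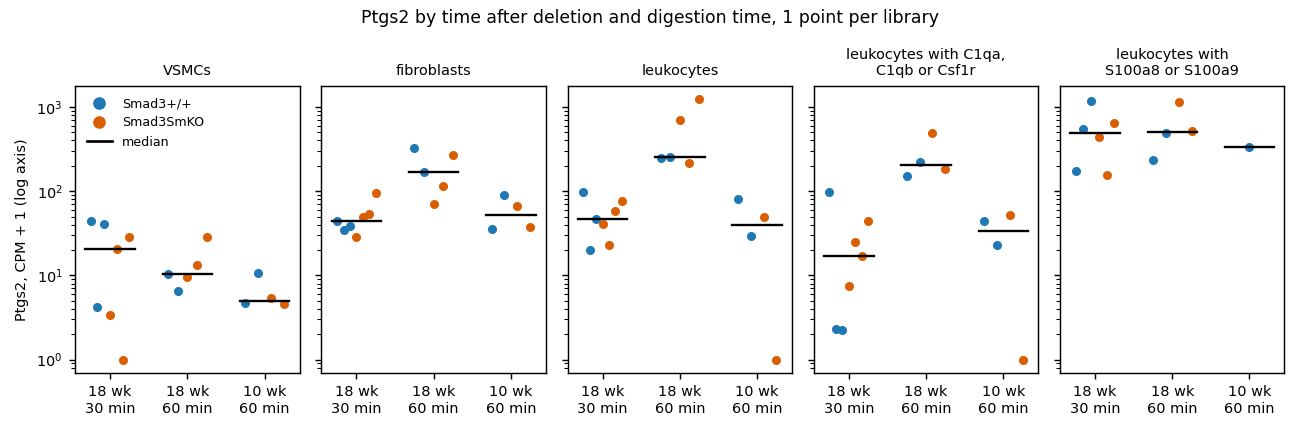
Ptgs2 level (CPM + 1, log axis) by weeks after deletion and digestion time in 3 cell classes and in the leukocytes of 2 marker gates, with 1 point per library with at least 10 cells, coloured by genotype, and a bar at the median. The 18-week, 60 min libraries lie above those of 30 min in leukocytes and in leukocytes with C1qa, C1qb or Csf1r, but not in VSMCs or in leukocytes with S100a8 or S100a9.

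Whether the size of this difference varied between classes was tested in 1 fit over the 18-week sums of all classes, added after seeing the data. Digestion time, batch and tracer label cannot be told apart in this fit. It had library as a term but none for batch within a class, so its p-values do not measure the spread between batches either. The Ptgs2 difference exceeded that in VSMCs by 3.89 (SE 0.63, edgeR adjusted p = 0.000368) in leukocytes and by 2.56 (SE 0.60, edgeR adjusted p = 0.0218) in fibroblasts, on the log2 scale. Among all genes, 4.92% and 1.63% were called in those contrasts. Leukocytes and fibroblasts were not told apart in this (1.33, SE 0.52, adjusted p = 0.228; 1.24% of genes called).

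Neutrophils carried the highest Ptgs2, so the digestion difference was also fitted within leukocyte gates, likewise added after seeing the data. Cells with S100a8 or S100a9 and none of the macrophage markers at the gate were 18.1% ± 15.7 of leukocytes after 30 min and 30.0% ± 14.5 after 60 min. In leukocytes with C1qa, C1qb or Csf1r and outside the S100a8 or S100a9 gate, Ptgs2 ran from 1.28 to 95.8 CPM after 30 min (n = 7) and from 152 to 486 CPM after 60 min (n = 4), without overlap. The log2 difference there was 3.33 (SE 0.68, adjusted p = 0.0139; 3.63% of genes called), about as large as in all leukocytes. In cells with S100a8 or S100a9 the means were 521 ± 375 (n = 6) and 593 ± 384 CPM (n = 4) and the log2 difference was 0.65 (SE 0.52, adjusted p = 0.451), with 6.07% of 1746 genes called.

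In fibroblasts with Has1 or Spon2, Ptgs2 was at 87.4 ± 47.2 CPM after 30 min (n = 7) and 333 ± 196 after 60 min (n = 5), a log2 difference of 2.08 (SE 0.39, adjusted p = 0.0207; 1.35% of genes called). In the other fibroblasts it was at 39.1 ± 14.9 and 101 ± 78.9 CPM, a difference of 1.498 (SE 0.36, adjusted p = 0.0602; 1.33% called). The share of fibroblasts with Has1 or Spon2 was 14.3% ± 3.51 after 30 min and 29.9% ± 17.9 after 60 min, and its part in the difference over all fibroblasts was not tested beyond these fits.

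Other values moved with digestion time beside Ptgs2. The summed neutrophil list in fibroblasts had a median of 62.9 CPM after 30 min and 350 CPM after 60 min. In no fibroblast library was S100a8 above 13.2 CPM or Il1r2 above 11.4 CPM. Retnlg, Cxcr2, Mmp9 and Csf3r reached at most 2.41 CPM. The median sum after 60 min thus came mostly from the rest of the list (S100a9 and Lcn2) and is no measure of neutrophil RNA as a whole. Fibroblasts after 60 min held 23612 UMIs of Ptgs2 and 1702 of S100a8 and S100a9. Leukocytes of the S100a8 or S100a9 gate held 1566 and 173959. In leukocytes the summed smooth muscle list ran from 29.9 to 98.2 CPM after 30 min and from 139 to 912 CPM after 60 min, and 4 of its 5 tested genes were called higher (3.52% of all genes were called there, in either direction). Of 20 immediate early and stress genes known to respond to tissue dissociation, all tested in each class, 0 were called in leukocytes (median log2 difference 0.13), 1 was called higher in fibroblasts (median 0.58; 1.59% of all genes called), 11 were called higher in endothelium (median 1.36; 1.87%), and 2 were called lower in VSMCs (median -0.31; 3.15%). The part of these in the Ptgs2 difference was not tested.

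The prostaglandin E receptor Ptger4 was not called between digestion times in any class. In fibroblasts it was at 40.0 to 60.8 CPM (median 52.0) after 30 min and at 43.0, 34.3, 29.6, 23.5 and 12.5 CPM after 60 min. All but one of the 60 min libraries lay below every 30 min library, and the log2 difference of -0.65 (SE 0.20, adjusted p = 0.0955) missed the threshold. In endothelium Ptger4 was at 0, 6.70, 24.0, 18.8, 7.54, 12.2 and 21.6 CPM after 30 min and at 34.7, 32.1, 42.4 and 33.0 CPM after 60 min. The endothelial libraries did not overlap, although each held 0 to 63 UMIs, and the difference of 1.77 (SE 0.44, adjusted p = 0.0577) missed the threshold too, with 1.87% of 8249 genes called. With cells of more than 1 gate counted in each class the endothelial Ptger4 difference was -0.41 (adjusted p = 0.576). In the fit over all classes, the Ptger4 difference in endothelium exceeded that in fibroblasts by 2.35 (SE 0.45, edgeR adjusted p = 0.0151, 0.12% of genes called). It exceeded that in VSMCs by 3.02 (SE 0.73, edgeR adjusted p = 0.0201, 1.9% of genes called). VSMCs held 78 Ptger4 UMIs in all libraries together.

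No other member was called between digestion times. Ptgs1, the other cyclooxygenase, differed by 0.03 (SE 0.25, adjusted p = 0.964) in fibroblasts, by -0.11 (SE 0.31, adjusted p = 0.914) in leukocytes and by -0.84 (SE 0.33, adjusted p = 0.236) in endothelium. Ptges in fibroblasts differed by 0.55 (SE 0.17, adjusted p = 0.103), Ptgis by 0.38 (SE 0.19, adjusted p = 0.296) in fibroblasts and 0.57 (SE 0.25, adjusted p = 0.250) in VSMCs, and Tbxa2r by 0.26 (SE 0.16, adjusted p = 0.419) in VSMCs. Ptgir could be tested in fibroblasts alone, where it differed by -0.28 (SE 0.26, adjusted p = 0.591).

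The other 30 genes of the pathway (phospholipases, synthases, transporters, breakdown enzymes and receptors) were read beside the members. Their highest mean level lay in fibroblasts for 12, in leukocytes for 9, in endothelium for 6 and in VSMCs for 3. Of the 20 that could be tested between classes, 12 were called higher and 2 lower in fibroblasts than in VSMCs (median log2 difference 0.50, against 0.09 over all genes), 8 higher and 7 lower in leukocytes than in VSMCs, and 6 higher and 7 lower in endothelium than in VSMCs. These counts lie near the shares called over all genes (68.1%, 79.8% and 65.8%) and say nothing particular to the pathway. The thromboxane synthase Tbxas1, which makes the ligand of Tbxa2r, was at 59.0 ± 16.5 CPM in leukocytes and at 0.441 ± 0.618 in VSMCs (log2 difference 6.94, SE 0.21, adjusted p = 3.58e-34), the reverse of its receptor. The prostaglandin-degrading enzyme Hpgd was at 103 ± 107 CPM in leukocytes and 18.6 ± 10.9 in fibroblasts, and the hematopoietic prostaglandin D synthase Hpgds at 89.7 ± 54.5 in leukocytes. The uptake transporter Slco2a1 was at 78.0 ± 36.5 CPM in endothelium (log2 difference from VSMCs 5.12, SE 0.27, adjusted p = 4.09e-23). The prostaglandin F receptor Ptgfr was at 18.7 ± 11.4 CPM in fibroblasts and 0.141 ± 0.207 in VSMCs (6.73, SE 0.24, adjusted p = 5.32e-30).

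By genotype, none of these other pathway genes was called: 19 were tested in VSMCs, 25 in fibroblasts, 14 in endothelium and 17 in leukocytes. By digestion time 1 was called, Ptger3 (EP3) in VSMCs, where it differed by -1.89 (SE 0.46, adjusted p = 0.0304) on 180 UMIs in all libraries; none was called in fibroblasts (25 tested), endothelium (13) or leukocytes (17).

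Over the 63 class-by-library values, which share libraries and depth, the log2(CPM + 5) of Ptgis was most like that of Cryab (Pearson r = 0.95), Khdrbs3 (0.95) and Shisa4 (0.95), and that of Tbxa2r most like A430105I19Rik (0.90), Ywhaq (0.90) and Rras (0.89), among 10547 genes. Ptgs1 was most like Lmo2 (0.92), Ly6e (0.92) and Nostrin (0.92). Ptges was most like Tspan11 (0.92), Sorcs2 (0.91) and Srpx (0.90), Ptgir like Ildr2 (0.84), Gpr39 (0.81) and Bicc1 (0.81), and Ptger4 like Ifi204 (0.89), Phlda1 (0.86) and Cmtm3 (0.85). Ptgs2 was most like Spp1 (0.83), Cxcl14 (0.79) and B4galt5 (0.77), the lowest set of likenesses among the members. Among themselves the members ranged from -0.76 (Ptger4 and Tbxa2r) to 0.69 (Ptges and Ptgir, and Ptgis and Tbxa2r), and the cyclooxygenases had r = 0.02.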

How the data were processed

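The authors deposited filtered 10x Genomics 3′ count matrices (UMI counts per gene and barcode, not normalized), aligned to mm10 with a GFP sequence; per the labels Cell Ranger 6 was used, while the matrix headers name 4.0.0. The 7 genes and all lists and gates were chosen with earlier results of these data known. Barcodes with 600 to 6000 genes, 2000 to 50000 UMIs and under 25% mitochondrial UMIs were kept (50858 of 66349 barcodes; 12539539 to 52843031 UMIs per library). No doublet caller was run. UMIs were summed per library and cell class, and sums of at least 10 cells were tested with edgeR 4.0.16 (R 4.3.3): TMM scaling, filterByExpr, quasi-likelihood F test, Benjamini-Hochberg adjustment over all genes of a class, threshold 0.05. Genotype fits had batch as a term and digestion fits genotype; class fits had library as a term. The SE is the log2 difference divided by the square root of F. DESeq2 1.42.0 and limma 3.58.1 were alternatives. The named genes were the 7 members, examples of the other pathway genes that passed a test, and the 3 genes most like each member. Scripts were tested on simulated data. The methods of the study describe cells sorted per mouse and 16 mice in all, the number of libraries. P-values were therefore read as the spread between mice, although the labels themselves carry no animal identifier. Digestion time did not vary within a batch, and the digestion fits within a class had no batch term. Their p-values thus do not measure the spread between batches. The same holds for the fit of digestion over all classes, which had library as a term but none for batch within a class. In limma voom with batch as a random block, the Ptgs2 call held in leukocytes and was lost in fibroblasts.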

Additional observations from a re-analysis of the deposited data

Results flagged for a closer look

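Of 56 sets of values examined (each gene and class in the 18-week groups, with 5 to 7 libraries each), 8 held a library far from the others by Dixon's criterion, which chance meets in about 1 in 20 sets. Several rest on few UMIs: in VSMCs of the 18-week Smad3SmKO libraries, replicate 4 stood at 7.95 CPM of Ptger4 and 7.95 CPM of Ptgir (2 UMIs each), replicate 3 at 5.98 CPM of Ptges (5 UMIs) and replicate 6 at 2.01 CPM of Ptgs1 (6 UMIs). In leukocytes, Smad3SmKO 18-week replicate 1 stood at 2.71 CPM of Tbxa2r (4 UMIs). The others rest on more: Ptgis in leukocytes of Smad3+/+ 18-week replicate 2 was at 74.8 CPM (71 UMIs; the next library at 16.7), Ptgs1 in endothelium of Smad3SmKO 18-week replicate 2 at 170 CPM (90 UMIs; next 68.1), and Ptgs2 in fibroblasts of Smad3SmKO 18-week replicate 7 at 269 CPM (1247 UMIs; next 115).

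The difference between digestion times at 18 weeks varied between classes for Ptgs2 and Ptger4 in the edgeR interaction fit. Digestion time, batch and tracer label cannot be told apart in this difference, and the p-values of this fit do not measure the spread between batches. For Ptgs2 it was larger than in VSMCs by 3.89 in leukocytes (adjusted p = 0.000368) and by 2.56 in fibroblasts (adjusted p = 0.0218), on the log2 scale. For Ptger4 it was larger in endothelium than in VSMCs by 3.02 (edgeR adjusted p = 0.0201) and than in fibroblasts by 2.35 (edgeR adjusted p = 0.0151). VSMCs held 78 Ptger4 UMIs in all libraries together. The Ptger4 difference within endothelium was not called (edgeR adjusted p = 0.0577) and was -0.41 with cells of more than 1 gate counted in each class.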

How the results depend on the processing

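The counts of members called between classes stayed within 1.5 times under all settings run (96 that left out 1 library and 48 others). With cells of more than 1 gate counted in each class, Ptgs2 between endothelium and VSMCs turned to 2.03 and Ptgir between leukocytes and endothelium to -0.48, and Ptgis between endothelium and fibroblasts lost its call (-0.08). By genotype no member was called except Tbxa2r in endothelium at 18 weeks with no filter on low counts (1 called). By digestion time, the count in VSMCs (0) became 1 with no filter (Ptgis) and 1 in limma voom with batch as a random block (Ptger4). In fibroblasts (1, Ptgs2) it became 3 in DESeq2 (Ptger4, Ptges and Ptgs2) and 0 without the libraries whose tracer label and GFP UMIs differed, in limma voom with the block, and with Smad3SmKO libraries alone; leaving out 1 library gave 0 to 1. In endothelium (0) it became 2 with no filter (Ptger4 and Ptgs1), 1 in DESeq2 (Ptger4) and 1 with cells of more than 1 gate (Ptgs2); leaving out 1 library gave 0 to 1. In leukocytes (1, Ptgs2) it became 2 with cells of more than 1 gate and 2 with Smad3SmKO libraries alone (Ptgis and Ptgs2); leaving out 1 library gave 1 to 2. The cause of these changes was not tested. Over all genes, digestion calls ran from 1 to 969 in VSMCs, 5 to 1193 in fibroblasts, 3 to 584 in endothelium and 123 to 872 in leukocytes, and genotype calls at 18 weeks from 0 to 105, 0 to 3, 0 to 69 and 0 to 62. At 10 weeks the libraries with a tracer mismatch could not be left out, since they are both Smad3SmKO libraries. No paired analysis by replicate number was made, since these numbers only follow the order of deposit; genotypes were compared within batches through the batch term. Depth limits the endothelial and leukocyte sums, which rest on few cells in several libraries.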
